A study of Drosophila melanogaster with 18 samples.

Results

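The genes described here are the 2 Cdc25 phosphatase genes of the fruit fly Drosophila melanogaster, stg (string) and twe (twine), together with 6 genes that hold the cell cycle back at the end of the syncytial divisions. These are the inhibitory kinases Wee1 and Myt1, the checkpoint kinases grp (grapes, the fly Chk1) and lok (loki, the fly Chk2), and the inhibitors trbl (tribbles) and frs (frühstart, listed as Z600 in the annotation). The 8 genes were chosen by FlyBase symbol and function, and all 8 were listed at every time point, among 9236 genes listed in at least 1 table. RNA of whole embryos was measured in 18 libraries, 3 for each of 2 genotypes at each of 3 ages (0-1h, 1-2h and 2-3h since egg laying). Wild type here is the strain w1118, which the labels call the pre-injected control. In orb2-delta-zz the orb2 gene lacks the sequence of its ZZ domain, a zinc-binding part of the RNA-binding protein ORB2. The sources used here do not give whether orb2-delta-zz embryos came from a single line or how many collections the libraries represent, so p-values measure the spread between these libraries, which may be technical.

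Early fly embryos divide as nuclei in a shared cytoplasm, on proteins and RNA loaded by the mother. Entry into mitosis needs the kinase Cdk1, which Wee1 and Myt1 hold inactive by phosphorylation and which the Cdc25 phosphatases String and Twine switch on by removing those phosphates. At the mid-blastula transition the fast divisions stop: maternal stg and twe RNA is cleared, Twine protein is destroyed, the Chk1 pathway slows the last cycles, and zygotic inhibitors appear. Tribbles promotes the destruction of String and Twine, and Frühstart blocks mitosis by binding cyclin. ORB2 belongs to the CPEB family, which controls the translation and stability of maternal messenger RNAs, and the comparison of genotypes asks how far transcript levels depend on its ZZ domain.

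Levels are given below as TPM, a share of all transcripts in the library, which corrects for transcript length and lets genes be compared with each other. Tests used the authors' normalized counts, which are scaled within a time point. Each table was normalized on its own, so differences between time points were not tested and are given as levels only, and a TPM is a share of the RNA present at that time. In whole embryos, fewer cells with a transcript and less transcript per cell cannot be told apart.

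In the BDGP6.54 annotation stg lies on chromosome 3R from 29251826 to 29255800 and twe on 2L from 16259414 to 16261877, both on the minus strand and both with 2 exons in every annotated transcript. Wee1 lies on 2L from 6911090 to 6914138 with 5 exons, and Myt1 on 3L from 5777476 to 5779591 with 4 exons, both on the minus strand. The gene grp lies on 2L from 16680054 to 16699926 with 5 to 8 exons and lok on 2L from 20061422 to 20064381 with 6 to 7 exons, both on the plus strand. The gene trbl lies on 3L from 20396288 to 20401609 on the minus strand with 2 exons. The gene frs lies on 3L from 15509061 to 15509513 on the plus strand. It is the only single-exon gene of the 8 and the smallest, with a span of 453 bases that codes for 90 amino acids. Some of these genes overlap others in the annotation, and the sources used here do not give whether the authors' quantification used strand. The last 69 bases of frs overlap gdl on the same strand. The first 1600 bases of grp hold squ on the same strand. Further in, grp overlaps CG31807 on the opposite strand and CG33552 on the same strand. The overlap with CG33552, which was listed at 1-2h and 2-3h, covers 788 bases. Overlaps of 98 bases (twe with EndoGI), 334 bases (Wee1 with Rat1) and 121 bases (lok with vls) lie on opposite strands. How far such overlaps touch the values was not tested.

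The samples carried the marks of early embryos. All 10 markers of the maternal load (such as bcd and osk) were listed in every library at above 0, with a summed TPM of 7591 to 9076 at 0-1h, 4829 to 6696 at 1-2h and 909 to 2415 at 2-3h over both genotypes. At 0-1h the maternal sums were apart, at 7591 to 8098 in wild type against 8649 to 9076 in orb2-delta-zz. By limma 2 of the 10 markers were higher, where 11.2% of all genes tested were. The median log2 fold change of the 10 was 0.09, while the 6 maternal genes described here had fold changes below 0. All 25 early zygotic markers were listed, at a summed TPM of 363 to 485, 644 to 1677 and 3294 to 5070.3, with none at 0. Their median log2 fold change was -0.44 at 0-1h, 0.41 at 1-2h and -0.16 at 2-3h. Below 0 were 23, 1 and 18 of the 25, against 52.1%, 51.2% and 50% of all genes tested. By limma 2 were lower at 0-1h, where 10.1% of all genes tested were, and 0 were called later. Of 10 late embryo markers 3, 4 and 8 were listed, at a summed TPM of 0.648 to 3.62, 6.29 to 50.04 and 59.5 to 106, and of 14 follicle and eggshell markers 0, 0 and 2 were listed. At 0-1h the late embryo sum was 3.16 to 3.62 in wild type against 0.648 to 2.42 in orb2-delta-zz, where Mlc2 was listed at 0 in 1 library. Of the 2 late embryo markers tested at 0-1h, 1 was lower by limma, where 10.1% of all genes tested were. The 1-2h sums were also apart, at 12.9 to 50.04 in wild type against 6.29 to 10.9. At 1-2h 1 of 4 markers was lower by limma, where 3.85% of all genes tested were, and Act57B was listed at 0 in 1 library of each genotype. The late embryo sums of 2-3h overlapped. The part of these markers in the genotype differences was not tested. Libraries that stood apart were wild type replicate 2 at 1-2h and wild type replicates 1 and 3 at 2-3h. The 1-2h library was lowest of the 6 for the early zygotic markers and highest for the late embryo sum, at 50.04. The 2-3h libraries were lowest and highest for the maternal markers.

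stg, the Cdc25 gene that later drives the zygotic divisions, started as an abundant maternal transcript and was far lower by 2-3h in both genotypes. At 0-1h its TPM was 305, 259.7 and 299 in the wild type libraries and 282, 303 and 263 in the orb2-delta-zz libraries. The 1-2h libraries gave 221, 290.3 and 231 in wild type against 221, 243 and 242 in orb2-delta-zz. The 2-3h libraries gave 58.5, 73.1 and 80.4 in wild type against 61.3, 74.0 and 79.8 in orb2-delta-zz. Those of 2-3h all lay far below the earlier ones, and the genotypes overlapped at each time point. The mean at 2-3h was 24.5% of that at 0-1h in wild type against 25.3% in orb2-delta-zz. On normalized counts the log2 fold change of orb2-delta-zz over wild type was -0.06 (SE 0.0503, limma adjusted p = 0.444) at 0-1h, -0.15 (SE 0.0864, adjusted p = 0.339) at 1-2h and -0.02 (SE 0.148, adjusted p = 0.955) at 2-3h.

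twe, the Cdc25 gene used in meiosis and the maternal divisions, stood at similar levels at 0-1h and 1-2h and was lower at 2-3h, where the wild type libraries lay far apart. Its TPM at 0-1h was 195, 182 and 207 in wild type against 189.9, 191 and 185 in orb2-delta-zz. By 1-2h the values were 189.9, 222 and 202 in wild type against 193, 207 and 206 in orb2-delta-zz. At 2-3h the wild type libraries were at 42.6, 106 and 165, against 63.5, 75.2 and 76.4 in orb2-delta-zz. The 3 orb2-delta-zz libraries lay between the lowest and the middle wild type library, so the groups overlapped. The wild type SD of twe at 2-3h was 1.01 on the log2 scale of normalized counts, where the median gene tested had an SD of 0.304. In orb2-delta-zz the SD of twe was 0.0847, with a median of 0.130. The means at 2-3h, 105 ± 61.3 in wild type against 71.7 ± 7.12 in orb2-delta-zz (TPM, SD, n = 3 each), stood at 53.8% and 38.0% of those at 0-1h.

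On normalized counts twe did not pass the test at any time point. At 0-1h its log2 fold change was -0.08 with an SE of 0.0381 (limma adjusted p = 0.187) and at 1-2h it was -0.10 with an SE of 0.0680 (adjusted p = 0.403), and at both times every orb2-delta-zz library was below every wild type library. At 0-1h the normalized counts were 7717, 7776 and 8107 in wild type against 7481, 7381 and 7510.1, and at 1-2h they were 9475, 9376 and 9049 against 8399, 8746 and 8842. In TPM the groups overlapped at both times. At 2-3h the log2 fold change was -0.39 with a 95% interval of -1.48 to 0.70 (SE 0.458, limma adjusted p = 0.726). This value rested on single wild type libraries. Without wild type replicate 1, where the maternal markers were lowest, the value was -0.94 (limma adjusted p = 0.0175). Leaving out wild type replicate 3, where they were highest, gave 0.04 (limma adjusted p = 0.970).

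**Figure D1:**
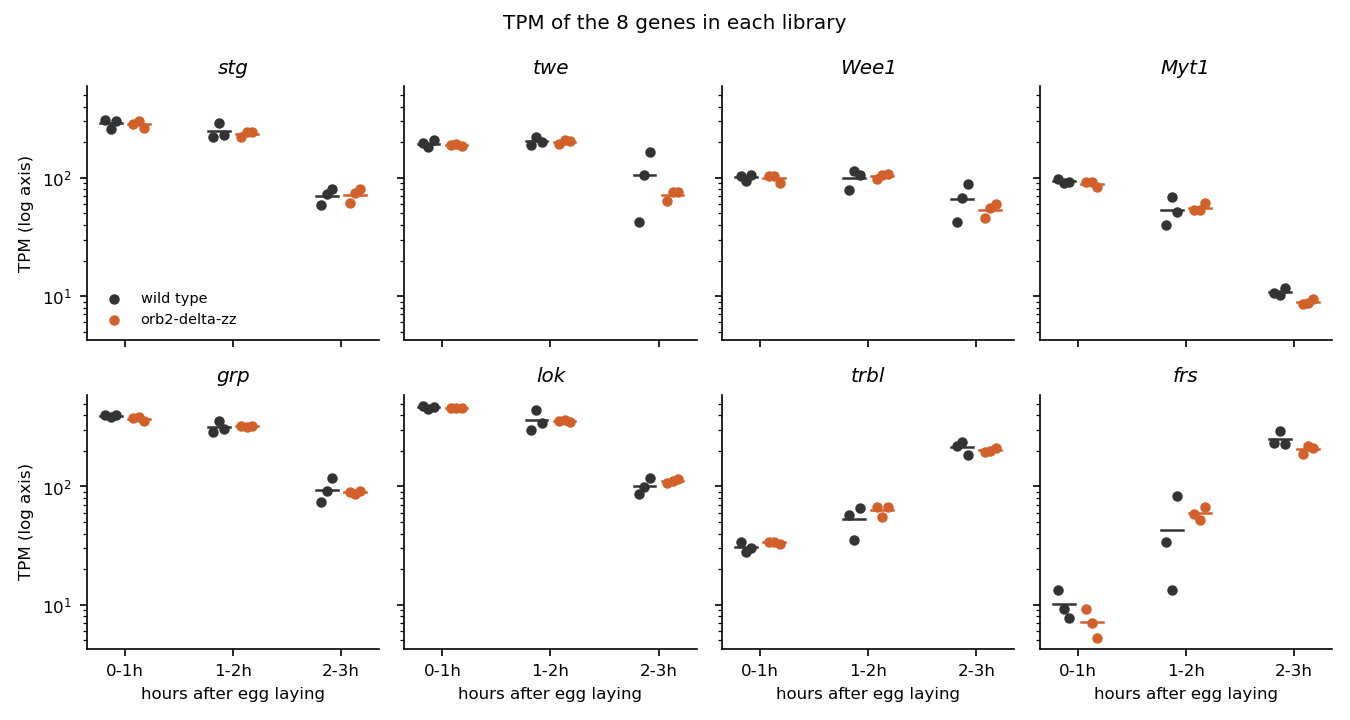
TPM of each of the 8 genes (log axis) by time after egg laying. Each point is a library, black for wild type and orange for orb2-delta-zz, and the short bar is the mean of 3 libraries. The panels of trbl and frs hold higher levels at 2-3h than at 0-1h and the other panels hold lower ones, and the wild type libraries of twe at 2-3h spread from 42.6 to 165.

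The balance between the Cdc25 genes moved from stg towards twe over time. The ratio of twe to stg within a library, in TPM, was 0.639 to 0.699 in wild type against 0.631 to 0.702 in orb2-delta-zz at 0-1h. The 1-2h ratios were 0.766 to 0.873 and 0.850 to 0.874. By 2-3h they were 0.728, 1.45 and 2.05 in the wild type libraries and 1.04, 1.02 and 0.958 in those of orb2-delta-zz. All 6 ratios at 1-2h were above all 6 at 0-1h, and at 2-3h wild type replicate 1 went the other way from replicates 2 and 3. A factor that scales a whole library cancels from such a ratio.

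Wee1 and Myt1, which phosphorylate Cdk1 in the nucleus and at membranes, started at similar levels and then parted. At 0-1h the TPM of Wee1 was 104, 93.1 and 105 in wild type against 103, 103 and 90.3 in orb2-delta-zz, and that of Myt1 was 97.1, 90.3 and 92.7 against 91.8, 92.7 and 83.7. By 1-2h Wee1 still stood at 79.2, 114.6 and 106 against 97.1, 105 and 108, while Myt1 was at 39.7, 68.3 and 51.0 against 53.2, 53.3 and 60.9. The kinases were now apart in every library, with the genotypes overlapping for each. At 2-3h Wee1 was at 42.2, 67.4 and 87.7 in wild type against 45.7, 55.1 and 59.6 in orb2-delta-zz. Myt1 was at 10.6, 10.2 and 11.7 against 8.51, 8.79 and 9.49. Wee1 thus kept 65.4% of its 0-1h mean in wild type against 54.2% in orb2-delta-zz, and Myt1 kept 11.6% and 9.99%, the smallest share of the 8 genes in either genotype. The ratio of Myt1 to Wee1 within a library was 0.883 to 0.970 at 0-1h, 0.481 to 0.596 at 1-2h and 0.134 to 0.251 at 2-3h over both genotypes, with no overlap between time points.

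Neither kinase passed the test of genotype. For Wee1 the log2 fold changes on normalized counts were -0.06 (limma adjusted p = 0.360) at 0-1h, -0.02 (adjusted p = 0.913) at 1-2h and -0.29 (SE 0.263, adjusted p = 0.640) at 2-3h. Like twe, Wee1 had wild type normalized counts at 2-3h that lay far apart, at 2699, 4399.7 and 5688, around the 3030.2, 3467 and 3516 of orb2-delta-zz. Without wild type replicate 1 its 2-3h value was -0.59 (limma adjusted p = 0.0303). Leaving out wild type replicate 3 gave -0.05.

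Myt1 had the smallest SD of the 8 genes at 2-3h in both genotypes, on the log2 scale of normalized counts. Its normalized counts were 557, 547 and 625 in wild type against 463, 454 and 459.7 in orb2-delta-zz, so every orb2-delta-zz library was below every wild type library. The log2 fold change was -0.33 with a 95% interval of -0.63 to -0.02 (SE 0.128, unadjusted p = 0.0396, limma adjusted p = 0.275), short of the threshold of 0.05. At 0-1h the Myt1 groups were also apart, at 4240.0, 4264 and 4002 in wild type against 3990.0, 3939.9 and 3755 (log2 fold change -0.10, limma adjusted p = 0.156). These 0-1h groups overlapped in TPM, where those of 2-3h stayed apart. The 1-2h groups overlapped (log2 fold change 0.02, limma adjusted p = 0.947).

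grp and lok, the kinases that relay replication stress and DNA breaks to the cell cycle, were the most abundant of the 8 genes at 0-1h. The TPM of lok was 476, 447 and 472 in wild type against 458, 458 and 459 in orb2-delta-zz. The TPM of grp was 399, 385 and 399 in wild type against 379, 385 and 359 in orb2-delta-zz. At 1-2h lok was at 302, 439 and 345 against 359, 364 and 353, and grp at 286, 356 and 308 against 324, 318 and 324. For both genes the orb2-delta-zz libraries lay inside the wild type range at this time. By 2-3h lok was at 86.6, 99.6 and 118 in wild type against 107, 110.3 and 116 in orb2-delta-zz, and grp was at 73.4, 91.2 and 117 against 89.1, 86.6 and 92.2. The means of lok were at 21.8% and 24.2% of those at 0-1h, and those of grp at 23.8% and 23.8%, close to the shares of stg. The ratio of lok to grp stayed between 1.01 and 1.28 in all 18 libraries, although their levels differed more than 4-fold between the first and the last time point.

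In the test of genotype grp was nearest to the threshold at 0-1h. Its normalized counts were 20210.5, 21139 and 20021 in wild type against 19140.4, 19036 and 18708 in orb2-delta-zz, and the groups were apart. In TPM the groups of grp overlapped. Its log2 fold change at that age was -0.11 (SE 0.0426, unadjusted p = 0.0293, limma adjusted p = 0.0993). At 1-2h and 2-3h it was -0.06 and -0.09 (limma adjusted p = 0.684 and 0.837), with overlapping groups. For lok the log2 fold changes were -0.05, -0.08 and 0.10 (limma adjusted p = 0.412, 0.643 and 0.770), and its groups overlapped at each time point.

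trbl was present from the start and was higher at each later time point. Its TPM at 0-1h was 33.9, 27.9 and 30.1 in wild type against 34.1, 34.2 and 32.9 in orb2-delta-zz. The 1-2h values were 57.8, 35.4 and 66.3 against 67.5, 55.4 and 67.2, and at 2-3h it was 220.2, 239.5 and 183 against 196, 198 and 212. Each later range lay above the earlier one in both genotypes, and the mean at 2-3h was 6.99 times that at 0-1h in wild type against 5.98 times in orb2-delta-zz. The genotypes overlapped at every time point. The log2 fold changes on normalized counts were 0.11 (limma adjusted p = 0.229) at 0-1h, 0.21 (adjusted p = 0.665) at 1-2h and -0.12 (adjusted p = 0.650) at 2-3h. Without wild type replicate 2 of 1-2h, the library with the lowest trbl, the value at 1-2h was -0.11.

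frs had the widest range of the 8 genes. Its TPM at 0-1h was 13.4, 9.27 and 7.73 in wild type against 9.21, 6.99 and 5.30 in orb2-delta-zz. At 1-2h the wild type libraries were at 34.1, 13.4 and 82.3 and the orb2-delta-zz libraries at 59.0, 52.4 and 67.2. At 2-3h frs was at 234, 292 and 228 in wild type against 188, 221 and 211 in orb2-delta-zz. The mean at 2-3h was 24.8 times that at 0-1h in wild type against 28.9 times in orb2-delta-zz. The orb2-delta-zz libraries of 1-2h lay inside the wide wild type range, which spanned 6.15-fold.

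The genotype comparison of frs changed sign between time points without passing the test at any. The median log2 fold change of the 25 early zygotic markers had the same signs, at -0.44, 0.41 and -0.16. On normalized counts the 0-1h log2 fold change of frs stood at -0.52 (SE 0.3002, limma adjusted p = 0.254). As single libraries were left out it ranged from -0.72 (without wild type replicate 3) to -0.32 (without wild type replicate 1). The log2 fold change of frs was 0.73 with a 95% interval of -0.63 to 2.09 (SE 0.586, limma adjusted p = 0.494) at 1-2h and -0.32 (SE 0.142, limma adjusted p = 0.327) at 2-3h. At 2-3h every orb2-delta-zz library, at 1226, 1370.1 and 1227, was below every wild type library, at 1477, 1877 and 1458. In TPM the 2-3h groups were likewise apart. On normalized counts the 2-3h log2 fold change ranged from -0.39 (without wild type replicate 3) to -0.21 (without wild type replicate 2) as single libraries were left out. The value at 1-2h was 0.02 without wild type replicate 2 and 1.37 without wild type replicate 3. The difference between the genotype effects of 1-2h and 0-1h was 1.25 (SE 0.638, unadjusted p = 0.0686, limma adjusted p = 1.00).

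**Figure D2:**
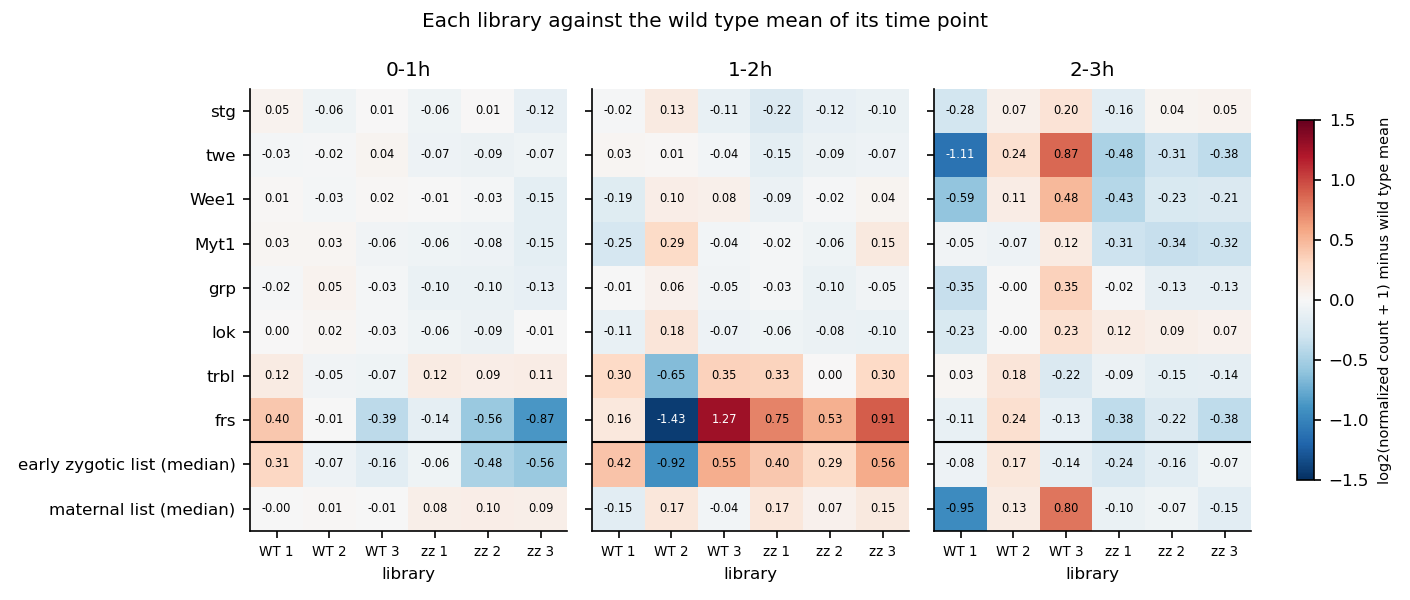
Log2(normalized count + 1) of each library minus the wild type mean of its time point, for the 8 genes and, below the line, as the median of 25 early zygotic and 10 maternal markers. Columns are the wild type (WT) and orb2-delta-zz (zz) libraries by replicate number, red is above and blue below the wild type mean. At 1-2h wild type replicate 2 is low for trbl, frs and the early zygotic markers, and at 2-3h wild type replicates 1 and 3 are low and high for twe, Wee1 and the maternal markers.

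Single libraries deviated from the wild type mean in these genes and in the marker lists alike. At 1-2h wild type replicate 2 was at -1.43 for frs and -0.65 for trbl, as log2(normalized count + 1) minus the wild type mean, and its median over the early zygotic markers was -0.92. The same library was the highest of the 6 for stg, grp, Wee1, Myt1 and lok, and its median over the maternal markers was 0.17. Over the 4 late embryo markers listed its median was 1.59. At 2-3h wild type replicate 1 was the lowest of the 6 libraries for stg, twe, grp, Wee1 and lok, and wild type replicate 3 was the highest for these 5 and for Myt1. The deviations of twe were -1.11 and 0.87 in those libraries, where the medians over the maternal markers were -0.95 and 0.80. At 0-1h the early zygotic medians were 0.31, -0.07 and -0.16 in wild type and -0.06, -0.48 and -0.56 in orb2-delta-zz, beside deviations of frs of 0.40, -0.01 and -0.39 and of -0.14, -0.56 and -0.87. The part of these markers in the genotype differences was not tested.

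The zygotic inhibitors made up a larger share of the 8 transcripts at 2-3h than before. The summed TPM of frs and trbl was 2.35% to 2.92% of the summed TPM of all 8 genes at 0-1h over both genotypes and 3.17% to 10.7% at 1-2h. At 2-3h it was 59.2%, 54.3% and 41.5% in wild type against 50.6%, 50.6% and 49.4% in orb2-delta-zz. Divided by the sum of stg and twe, the sum of frs and trbl was 0.0748 to 0.0946 at 0-1h, 0.0952 to 0.344 at 1-2h and 1.67 to 4.49 at 2-3h. In contrast, the sum of Wee1 and Myt1 over that of stg and twe stayed between 0.289 and 0.522 in all 18 libraries. Its wild type mean was 0.402 ± 0.0127 at 0-1h, 0.336 ± 0.0408 at 1-2h and 0.453 ± 0.0611 at 2-3h, and that of orb2-delta-zz was 0.398 ± 0.0117, 0.364 ± 0.0121 and 0.435 ± 0.00692 (SD, n = 3 each).

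**Figure D3:**
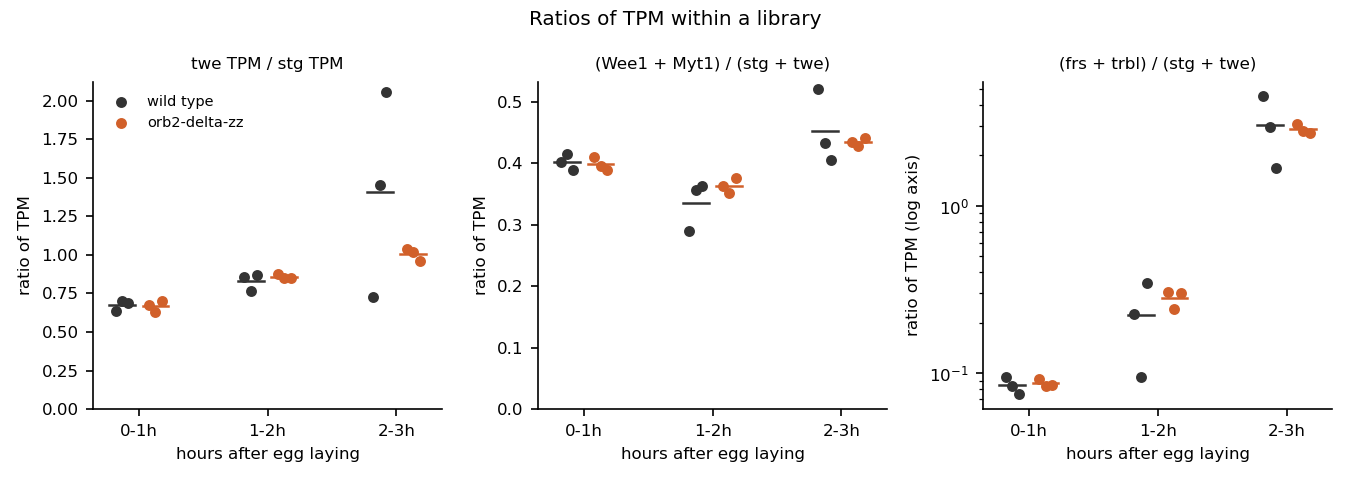
Ratios of TPM within a library by time after egg laying, for twe over stg, Wee1 + Myt1 over stg + twe, and frs + trbl over stg + twe (the last on a log axis). Points are libraries (black, wild type; orange, orb2-delta-zz) and short bars are means of 3. The right panel spans 0.0748 to 4.49, while the middle one stays between 0.289 and 0.522.

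The order of levels was the same in both genotypes at 0-1h and differed later. From high to low in TPM it was lok, grp, stg, twe, Wee1, Myt1, trbl and frs, and only the ranges of Wee1 and Myt1 overlapped. At 1-2h the first 5 places were kept, though in wild type the ranges of lok and grp, of grp and stg, and of stg and twe overlapped. The last 3, trbl, Myt1 and frs, overlapped in both genotypes. At 2-3h frs and trbl came first with overlapping ranges, Myt1 came last and apart, and in wild type the ranges of neighbours among twe, lok, grp, stg and Wee1 overlapped. In orb2-delta-zz twe stood below lok and grp, in the order lok, grp, twe, stg and Wee1, and among neighbours of those 5 only twe and stg overlapped.

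Across all 8 genes limma called 0 at each time point, adjusted over all genes tested, where 21.3% of 7559 genes were called at 0-1h, 7.37% of 8095 at 1-2h and 3.28% of 9014 at 2-3h. At an unadjusted p under 0.05 there were 1, 0 and 1 (grp at 0-1h and Myt1 at 2-3h), against 34.4%, 24.2% and 16.3% of all genes. On TPM 0 of the 8 had an unadjusted p under 0.05 at any time point. Adjusted over all genes tested, limma called 0 of them on that scale, where 16.5%, 6.13% and 3.58% of all genes were called. Groups were apart for 3 genes at 0-1h (twe, grp and Myt1), 1 at 1-2h (twe) and 2 at 2-3h (frs and Myt1), each time lower in orb2-delta-zz, where 18.9%, 16.3% and 11.4% of all genes tested were apart and lower. None of the 8 was apart and higher, where 20.1%, 16.5% and 12.2% of genes tested were, so that 38.9%, 32.8% and 23.5% were apart in either direction. In TPM the groups of twe, grp and Myt1 overlapped at 0-1h and those of twe at 1-2h, while frs and Myt1 stayed apart at 2-3h. Fold changes were below 0 for 7, 5 and 7 of the 8 genes, against 52.1%, 51.2% and 50% of all genes tested. Only 2 of the 8 were below 0 at 1-2h on TPM, a scale on which the median over all genes tested was also above 0. The median log2 fold change of the 8 genes was -0.07, -0.04 and -0.21, against medians of -0.0080, -0.0074 and -9.4e-05 over all genes tested. At 1-2h the median of the 8 genes was 0.047 on TPM, against 0.068 over all genes tested. The 2-3h values rested on single libraries, since the median was -0.0033 with 4 of 8 genes below 0 without wild type replicate 3, and -0.31 with 8 of 8 below 0 without wild type replicate 1. At 0-1h the 95% intervals of the 6 maternal genes stg, twe, Wee1, Myt1, grp and lok lay between -0.20 and 0.05 on the log2 scale, while at 2-3h those of twe and Wee1 reached -1.48 and -0.92. Of 24 differences of genotype effect between time points (8 genes, 3 pairs of time points) limma called 0, where 0.12%, 1.89% and 0.79% of 7470 genes were called. The lowest unadjusted p was 0.0414, for Myt1 between 1-2h and 2-3h (difference -0.35, limma adjusted p = 0.454), and it was the only difference with an unadjusted p under 0.05.

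**Figure D4:**
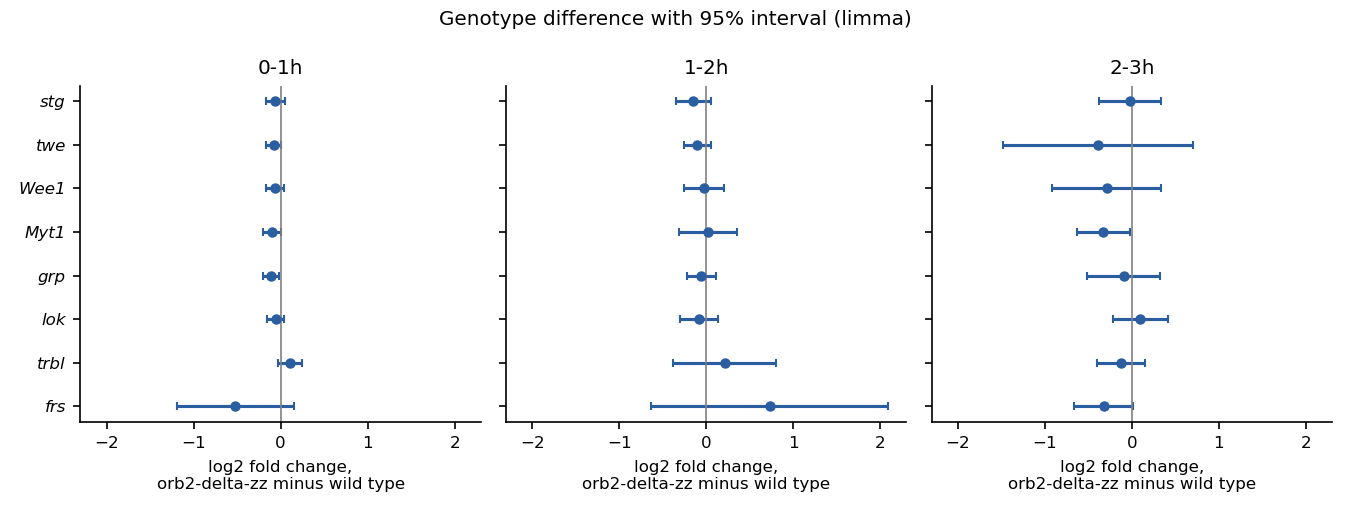
Log2 fold change of orb2-delta-zz over wild type (points) with the 95% interval of limma (bars, not adjusted for the number of genes), for the 8 genes at 0-1h, 1-2h and 2-3h. Intervals are narrowest at 0-1h for the maternal genes, and the widest are those of frs at 1-2h (-0.63 to 2.09) and twe at 2-3h (-1.48 to 0.70).

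Partners of these genes in mitotic entry and in the checkpoint were called at 0-1h in shares near that of all genes tested, and at 1-2h and 2-3h none were called. Of 15 genes of mitotic entry, 3 fell in orb2-delta-zz at 0-1h and 0 rose, where 10.1% of all genes tested fell and 11.2% rose. The limma test called 0 at 1-2h, where 3.85% of all genes fell and 3.52% rose, and 0 at 2-3h, where the shares were 1.73% and 1.55%. At an unadjusted p under 0.05 there were 4, 0 and 0 of the 15 at the successive time points, against 34.4%, 24.2% and 16.3% of all genes tested. The list's median log2 fold change was 0.02, 0.07 and -0.06. Cdk1, the kinase on which Wee1, Myt1 and the Cdc25 phosphatases act, fell at 0-1h from a normalized count of 5514 ± 446 to 4744 ± 290 (SD, n = 3 each; log2 fold change -0.22, SE 0.0648, limma adjusted p = 0.0414). Its groups were also apart at 1-2h (-0.27, limma adjusted p = 0.232) and 2-3h (-0.18, adjusted p = 0.378). mts, the catalytic subunit of the phosphatase PP2A, fell at 0-1h, its log2 fold change being -0.20 with an SE of 0.0445 (limma adjusted p = 0.0104). CycB3, a mitotic cyclin, fell too, at a log2 fold change of -0.14 with an SE of 0.0442 (limma adjusted p = 0.0465). CycB3 lost its call when any single library was left out, Cdk1 when any but orb2-delta-zz replicate 3 was left out, and mts and CycB3 lost theirs on TPM (limma adjusted p = 0.0521 and 0.163).

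Of 18 checkpoint genes matched, 2 rose and 1 fell at 0-1h, where 11.2% and 10.1% of all genes did, and limma called 0 at 1-2h and 2-3h, with list medians of -0.01, -0.07 and 0.08. At an unadjusted p under 0.05 there were 8, 4 and 1 of the 18, where 34.4%, 24.2% and 16.3% of all genes tested had one. mre11, a nuclease subunit of the complex that senses DNA breaks, rose from a normalized count of 4337 ± 122 to 5126 ± 220 (SD, n = 3 each; log2 fold change 0.24, SE 0.0454, limma adjusted p = 0.0048). timeout, the fly relative of the replication fork protein Timeless, rose too, at 0.23 (SE 0.0388, limma adjusted p = 0.0029). Hus1-like, a subunit of the checkpoint clamp, fell from 468 ± 43.8 to 317 ± 17.3 (SD, n = 3 each; log2 fold change -0.56, SE 0.103, limma adjusted p = 0.0043). It shares 3761 bases with ctrip on the same strand, and timeout shares 840 with CG34308, and reads from the shared bases could belong to either gene. The kinases upstream of grp and lok did not pass: mei-41 (ATR) was at log2 fold changes of -0.07, 0.12 and 0.34 and tefu (ATM) at -0.07, -0.38 and -0.64 at the successive time points (limma adjusted p of 0.345 or more).

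**Figure D5:**
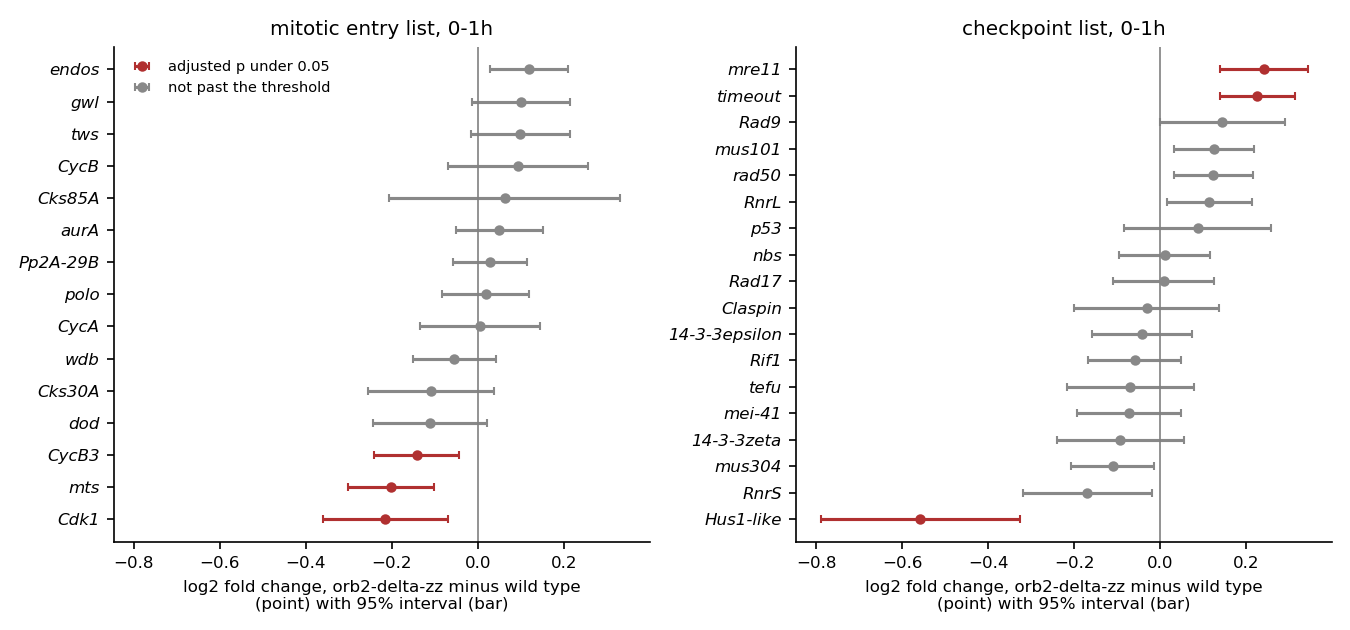
Log2 fold change of orb2-delta-zz over wild type at 0-1h (points) with the 95% interval of limma (bars) for 15 mitotic entry genes (left) and 18 checkpoint genes (right), red where the adjusted p was under 0.05. Red points are CycB3, mts, Cdk1 and Hus1-like below 0 and mre11 and timeout above 0.

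Genes with the most similar profiles were sought over the 18 libraries, among 6966 genes, by Pearson's r of log2(TPM + 1). The 18 points share their libraries and the tables of 3 time points, so each r is a description. For stg these were cal1, Cse1 and Klc (r = 0.996 each), and for twe Pngl (0.995), CG33181 (0.993) and CG9795 (0.991). Pngl was at a mean TPM of 117, 122 and 70.5 in wild type over the time points, the same course as twe at a lower level. Wee1 came closest to CG3407 (0.988), CG32767 (0.986) and Vps26 (0.985), and Myt1 to Samuel, CG13850 and GlcT (0.998 each). For grp they were CG6664 (0.998), CG6276 and CG31689 (0.997 each), and for lok yem (0.999), Vsp37A and Hnf4 (0.998 each). frs came closest to D (Dichaete), CG34214 and the gap gene gt (giant), each at 0.995, and trbl to gogo, croc (0.994 each) and egr (0.993). D was at a mean TPM of 11.6, 50.4 and 267 in wild type, near the levels of frs, while gogo, croc and egr stood at 0.433, 0.436 and 4.81 at 0-1h, below the 30.6 of trbl.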

How the data were processed

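RNA was measured in 18 libraries of whole embryos, from rRNA-depleted total RNA and strand-specific libraries, per the labels' protocols. Trim Galore 0.6.5, Salmon 1.9.1 and DESeq2 1.42.1 are named in the submitters' processing notes. The sources used here give neither the build nor the annotation. For every time point, normalized counts were deposited, a signal per gene and library scaled within that table (unit from the file names and values), and a table of TPM. The normalized totals, 3.36e+07 to 3.85e+07, follow the authors' scaling. Whole reads were sought as a common step among low values. At most 64.3% of these came out whole (tolerance 0.1), short of 95%. A count test was therefore left out, and the depth and counting intervals are unknown. All columns of library values were mapped (0 left out).

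Genotypes were compared within each table by limma 3.58.1 (trend method, two-sided; R 4.3.3) on log2(normalized count + 1). Genes needed a mean of at least 10 normalized counts, with Benjamini-Hochberg adjustment over all genes tested and a threshold of 0.05. Folds on this scale understate changes of low genes. Differences of genotype effects were tested in 1 fit of the 18 libraries, on genes that met this mean in every table. The fits were tested on simulated data. The symbol frs was matched through the RefSeq synonym table, tim-1 was unmatched, and positions are from the Ensembl annotation of BDGP6.54. The members and gene lists were chosen with earlier results of these data known. Named were the 8 genes, the called genes of the mitotic entry and checkpoint lists, the 3 genes most alike in TPM (mean of 5 or more in a group), and overlapping genes. Beyond this rule mei-41 and tefu were added with their values known. Alternatives covered the pseudocount, the filter, trimmed mean rescaling, TPM, library weights, the replicate number as a block, separate spreads and each library left out. Figures were drawn with matplotlib 3.10.9.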

Additional observations from a re-analysis of the deposited data

How the results depend on the processing

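The count of 0 called genes among the 8 held at 0-1h and 1-2h under every alternative run. At 2-3h it ranged from 0 to 2 as single libraries were left out, with 2 (twe and Wee1) without wild type replicate 1, where 18.5% of all genes were called, and it was 5 with library weights (twe, trbl, frs, Wee1 and Myt1, all lower in orb2-delta-zz), where 60.4% of all genes were called. Those weights did not converge and gave wild type replicate 2 a weight of 1124 against 0.0581 and 0.0792 for replicates 1 and 3, so that the wild type side rested on 1 library. Differences of effect between time points ranged from 0 to 4 called as single libraries were left out. The 4 (twe and Wee1 at 2-3h against both earlier times) came without wild type replicate 1 of 2-3h. In that run calls among all genes rose too, from 141 to 1244 (2-3h minus 0-1h) and from 59 to 1397 (2-3h minus 1-2h). With separate spreads 0 differences of the 8 genes were called. Under a mean of 50 or more frs was not tested at 0-1h.

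Changes of sign concerned values that did not pass the test. On TPM the log2 fold changes at 1-2h were 0.030 for grp, 0.063 for Wee1 and 0.0037 for lok, and stg at 2-3h was at 0.023. With library weights trbl and frs at 1-2h were at -0.20 and -0.54, in a run where 47.8% of all genes were called. The 1-2h weights did not converge either. They gave wild type replicate 3 a weight of 13.2 against 0.187 and 0.200 for replicates 1 and 2. Leaving out single libraries gave ranges at 1-2h of -0.10 to 0.17 for Myt1, -0.11 to 0.38 for trbl, -0.12 to 0.030 for Wee1 and -0.14 to 0.0094 for lok, and at 2-3h of -0.021 to 0.21 for lok, -0.16 to 0.078 for stg, -0.94 to 0.043 for twe and -0.27 to 0.081 for grp.

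With the replicate number as a block 0 of the 8 genes were called at any time point and 0 of their differences between time points. Of all genes tested, 15.3% were called with this block at 0-1h, 6.11% at 1-2h and 0.61% at 2-3h. Differences called over all genes numbered 1 (1-2h minus 0-1h), 79 (2-3h minus 0-1h) and 19 (2-3h minus 1-2h). The block also removed the calls of mts, Cdk1 and CycB3 at 0-1h (limma adjusted p = 0.0591, 0.0886 and 0.182). The deviations did not settle whether the numbers pair the samples: those of same-numbered libraries correlated at -0.34 to 0.22 across genes. At 1-2h each wild type library correlated best with its own number, and at 0-1h and 2-3h none did. The calls of mre11, timeout and Hus1-like held under every alternative run. CycB3 also lost its call with trimmed mean rescaling (limma adjusted p = 0.0542). The alternatives for the mitotic entry and checkpoint genes were chosen after seeing the data. Depth is unknown, so how far counting error limits the low values of frs at 0-1h cannot be given.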
